A study of Mus musculus with 6 samples.

Results

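Claudins are the membrane proteins that form the sealing strands of tight junctions, and 9 claudin genes (Cldn1, Cldn3, Cldn4, Cldn6, Cldn7, Cldn8, Cldn9, Cldn12 and Cldn23) were followed here in mouse embryonic handpads. They are a list of symbols drawn up with earlier results of these data known, not every claudin gene, and they were found among the 34989 genes to which the deposited transcripts could be assigned. All 9 passed the filter on low counts, and 26 further claudin genes were kept apart from them. RNA was sequenced from handpads, the flattened forelimb tips in which digits form, of C57BL/6 embryos at E14.5. The groups were 3 Grhl3 knockout samples and 3 wild-type samples, and each sample gave 1 library. The labels give neither the part of Grhl3 that was deleted nor whether a sample was 1 embryo or a pool, so the p-values rest only on how much these samples varied, and part of that variation may be technical.

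In a tight junction, claudins of neighbouring cells pair across the gap between them, and the mix of claudins in a strand sets which ions and solutes pass. Cytoplasmic scaffold proteins anchor the strands, and occludin and the tricellular proteins complete them. In embryonic skin, tight junctions lie in the outer living layers, among them the periderm, the flat cell sheet that covers the developing epidermis. Grhl3 encodes a DNA-binding protein of the grainyhead family that acts in the surface ectoderm, and its relative Grhl2 is known in mice to activate Cldn4 directly.

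The libraries held 47642524 to 56037639 estimated counts in the knockout and 38052692 to 48984542 in wild-type. Grhl3 measured 3.11, 2.86 and 2.95 CPM (counts scaled to library size with the TMM method) in the knockout libraries, against 14.3, 45.7 and 18.5 CPM in the wild-type libraries, so every library went with its label. Wild-type replicate 2 had the highest Grhl3 level and the most epithelial marker RNA of its group. Summed Y-linked expression was 3.37 to 4.43 CPM in the knockout libraries, against 5.36, 290 and 341 CPM in wild-type replicates 1, 2 and 3. Wild-type replicates 2 and 3 thus stood apart from the other 4 libraries. High Y-linked expression occurred only in wild-type, so sex, as read from it, is partly confounded with genotype in every comparison here.

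The claudins lie on chromosomes 5, 8, 11, 16 and 17, and some lie close together. On chromosome 17 (mm10), Cldn6 (ENSMUSG00000023906.3, 23679249 to 23682446, plus strand) and Cldn9 (ENSMUSG00000066720.7, 23682584 to 23684026, minus strand) are 137 bases apart. On chromosome 5, Cldn4 (ENSMUSG00000047501.3, 134945119 to 134946934, minus strand) and Cldn3 (ENSMUSG00000070473.4, 134986214 to 134987472, plus strand) are 39279 bases apart. No annotated gene lies wholly between them. These pairs are also the closest in coding sequence among the 9 genes. Identical bases in the alignment came to 73.2% and 72.7% of the shorter coding sequence, against at most 67.9% for any other pair. The longest run of bases that the coding sequences of a pair share is shown here because reads inside it cannot be assigned to 1 gene. It is in capitals, with 15 bases of each gene on either side in lower case, from the GENCODE transcripts.

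Cldn6: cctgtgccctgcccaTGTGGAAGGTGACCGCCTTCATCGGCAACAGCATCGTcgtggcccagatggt
Cldn9: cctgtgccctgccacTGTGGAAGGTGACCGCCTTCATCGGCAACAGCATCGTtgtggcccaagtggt
Cldn3: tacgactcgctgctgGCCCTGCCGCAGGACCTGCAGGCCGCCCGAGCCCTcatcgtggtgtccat
Cldn4: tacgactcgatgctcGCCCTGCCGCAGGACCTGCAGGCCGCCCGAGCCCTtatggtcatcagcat

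The run is 37 bases long in Cldn6 and Cldn9 and 35 bases long in Cldn3 and Cldn4. Of all 31-base words in the annotated transcripts of a member, the share also found in transcripts of another gene was 1.22% for Cldn3, and at most 0.495% for each of the other 8 members. Reads of these genes could thus be told apart over nearly their whole length. Cldn3 also overlaps the antisense gene Wbscr25 by 40 bases, and whether strand was used in counting is not given in the sources used here.

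Cldn6 and Cldn7 were higher in the Grhl3 knockout, and none of the 9 claudins was called lower. Cldn3 and Cldn4 were higher in every knockout library than in any wild-type library without passing the test over all genes. Cldn1, Cldn9, Cldn12, Cldn23 and Cldn8 overlapped between the genotypes. The test was edgeR's quasi-likelihood test with genotype as its term, adjusted by Benjamini-Hochberg over 16938 genes, and a call required an adjusted p under 0.05, which 0.431% of all tested genes met. This called 2 of 9 claudins higher, where 0.348% of all tested genes were called higher, and 0 of 9 lower, where 0.0827% were called lower. With no adjustment, p was under 0.05 for 5 claudins, all of them higher in the knockout, where 7.22% of all genes had such a p (3.81% higher and 3.41% lower). Cldn6, Cldn7, Cldn3 and Cldn4 were called higher, and 0 claudins lower, by DESeq2 and also by edgeR's likelihood ratio test. Of all genes, DESeq2 called 1.25% higher and 0.514% lower, and the likelihood ratio test 1.09% higher and 0.443% lower. Because the 9 were listed with results known, their shares are a description and do not set the family apart from other genes. The groups did not overlap for 4 of 9 claudins, all higher in the knockout, where 12.9% of all genes did not overlap and 6.77% did so with the knockout higher. Fold changes were positive for 6 of 9, where 48.8% of all genes had a positive one. The median log2 fold change over the 9 was 0.51, and that of all tested genes was -0.0045. In bulk tissue, more cells of a type and more RNA per cell cannot be told apart.

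**Figure D1:**
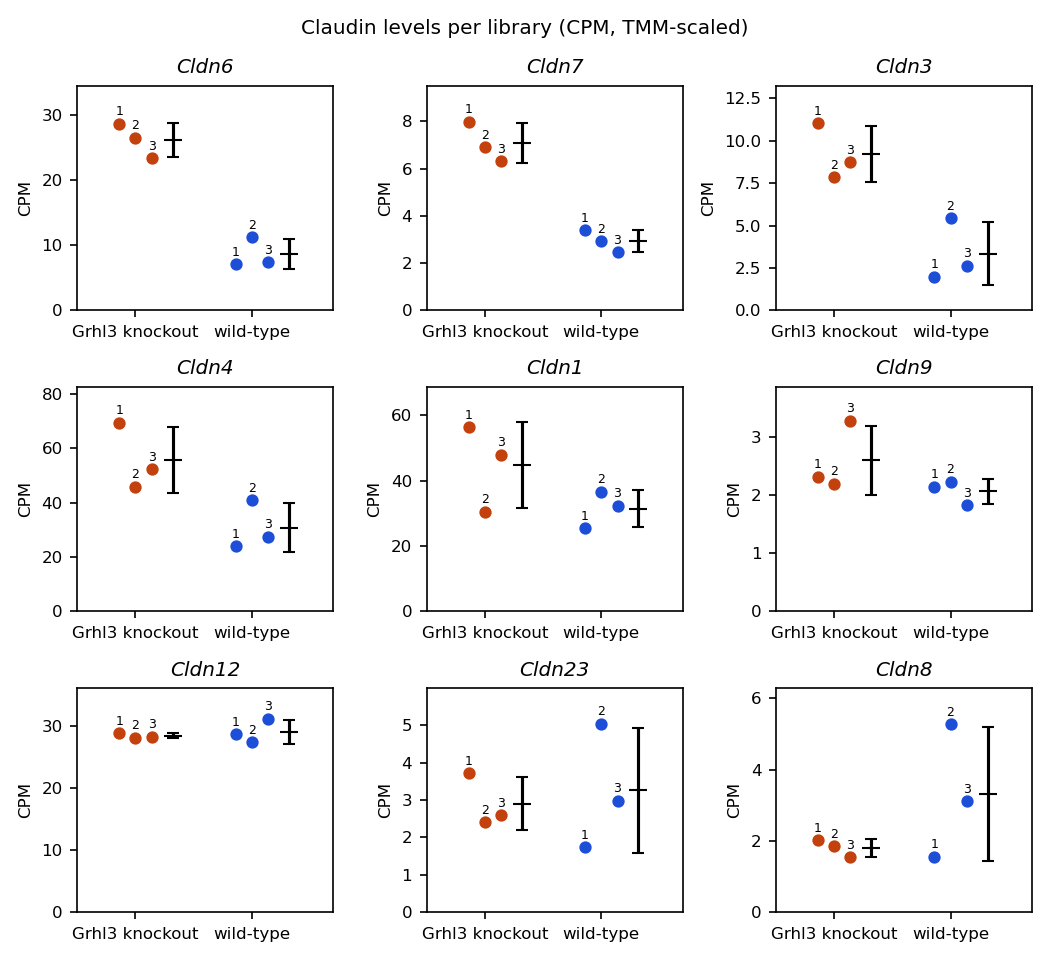
Level of each claudin in each library, in TMM-scaled CPM; points are libraries with their replicate number, and the bar beside them is the mean with its SD (n = 3 per group). Cldn6, Cldn7, Cldn3 and Cldn4 did not overlap between the groups, while wild-type replicate 2 was the highest library for Cldn8 and Cldn23.

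Cldn6 encodes a claudin of embryonic epithelia that is scarce in most adult tissues, and it had the smallest p of the family. It measured 28.7, 26.6 and 23.5 CPM in the knockout libraries, against 7.13, 11.3 and 7.46 CPM in the wild-type libraries. The lowest knockout library was thus well above the highest wild-type library, replicate 2. The log2 fold change was 1.60 (SE 0.19, adjusted p = 0.0146, edgeR), a 3.04-fold difference, and the gene ranked 23 by p among all genes. The call was lost without wild-type replicate 3 (adjusted p = 0.126), knockout replicate 1 (0.0931) or knockout replicate 3 (0.0501), while the log2 fold change ran from 1.48 to 1.85 over the fits with 1 library left out.

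Cldn7 encodes a claudin that binds the adhesion protein EpCAM and also lies along the lateral membrane outside tight junctions. It measured 7.98, 6.91 and 6.31 CPM in the knockout libraries, against 3.41, 2.93 and 2.45 CPM in the wild-type libraries. The spread within each genotype was small, with an SD of 0.842 CPM in the knockout and 0.476 CPM in wild-type (n = 3 each). The log2 fold change was 1.27 (SE 0.19, adjusted p = 0.0337, edgeR), a 2.41-fold difference. The call held in 1 of the 6 fits with a library left out, that without wild-type replicate 1 (adjusted p = 0.0172), and the other 5 gave adjusted p-values from 0.0816 to 0.19. With the effective transcript length of each library as an offset, the log2 fold change was 1.07 (adjusted p = 0.249, edgeR).

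Cldn7 was the member whose transcript mix bore on its value. Of its 5 transcripts, 2 carried most of the level: a 1335-base transcript of 4 exons that starts at 69965396 on chromosome 11, and a 913-base transcript of 5 exons that starts upstream at 69964779. The 1335-base transcript measured 5.56, 4.74 and 3.93 TPM (a level corrected for transcript length) in the knockout libraries, against 0.776, 1.48 and 1.98 TPM in the wild-type libraries, with no overlap. The 913-base transcript measured 6.03, 5.09 and 3.6 TPM in the knockout libraries, against 3.73, 3.3 and 1.7 TPM in the wild-type libraries. Here the groups overlapped, because wild-type replicate 1 lay above knockout replicate 3. The 1335-base transcript made up 44.2% ± 4.21 of the Cldn7 level in the knockout and 29.2% ± 18.2 in wild-type (SD, n = 3 each), and wild-type replicate 3, at 48.9%, exceeded all knockout libraries. The division of reads between these transcripts is kallisto's estimate, and it was not tested.

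**Figure D2:**
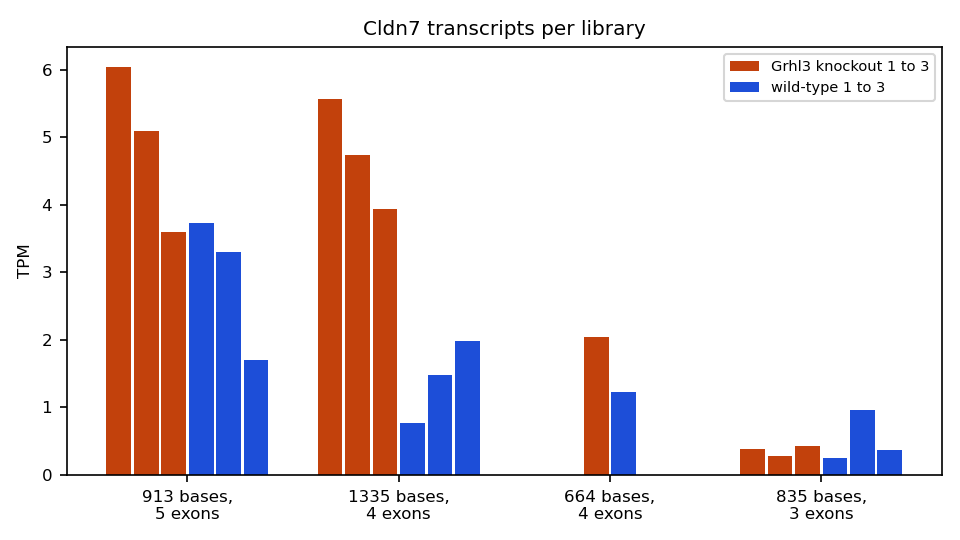
Level of the Cldn7 transcripts with any reads, in TPM; each bar is 1 library, with the Grhl3 knockout libraries left of the wild-type libraries. The 1335-base transcript lay between 3.93 and 5.56 TPM in the knockout and between 0.776 and 1.98 TPM in wild-type.

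Cldn3 and Cldn4 encode sealing claudins that both bind the enterotoxin of Clostridium perfringens. Cldn3 measured 11.02, 7.84 and 8.75 CPM in the knockout libraries, against 1.98, 5.44 and 2.63 CPM in the wild-type libraries. Wild-type replicate 2 lay far above its group's other libraries, while all knockout libraries lay higher still. The log2 fold change of Cldn3 was 1.45 (SE 0.35, adjusted p = 0.213, edgeR), and it did not pass the test. Without wild-type replicate 2 it was 1.995 and passed (adjusted p = 0.0372, edgeR). With any other library left out it did not pass, at adjusted p-values from 0.111 to 0.722 (edgeR). Cldn4 measured 69.3, 45.9 and 52.2 CPM in the knockout libraries, against 23.9, 41.0 and 27.5 CPM in the wild-type libraries. The gap between the lowest knockout and the highest wild-type library was again narrow. Its log2 fold change was 0.86 with an SE of 0.22, and the adjusted p of 0.263 did not pass (edgeR). Both genes passed with the likelihood ratio test (adjusted p = 0.0114 for Cldn3 and 0.0252 for Cldn4) and with DESeq2 (adjusted p = 0.0014 and 0.0102).

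Cldn1, whose loss in mice lets water escape through the epidermis, overlapped between the genotypes. It measured 56.3, 30.5 and 47.9 CPM in the knockout libraries, against 25.4, 36.6 and 32.3 CPM in the wild-type libraries. Knockout replicate 2 lay inside the wild-type range, and the log2 fold change was 0.51 (SE 0.22, adjusted p = 0.686, edgeR). Cldn9, the neighbour of Cldn6 and a claudin known from the inner ear, measured 2.31, 2.19 and 3.28 CPM in the knockout libraries, against 2.14, 2.23 and 1.82 CPM in the wild-type libraries. Its log2 fold change was 0.33 (SE 0.23, adjusted p = 0.891, edgeR), so the call for Cldn6 had no counterpart in Cldn9, although the difference between the genes was not tested. Cldn12, which lacks the usual scaffold-binding tail of claudins, was the steadiest member. It measured 28.9, 28.2 and 28.3 CPM in the knockout libraries, against 28.7, 27.4 and 31.2 CPM in the wild-type libraries. Its log2 fold change was -0.03 with an SE of 0.09 (adjusted p = 0.994, edgeR).

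Cldn8 and Cldn23 had negative fold changes, and wild-type replicate 2 was the highest of the 6 libraries for both. Cldn8, a claudin of the kidney collecting duct, measured 2.03, 1.85 and 1.55 CPM in the knockout libraries, against 1.56, 5.28 and 3.11 CPM in the wild-type libraries. Wild-type replicate 1 lay among the knockout libraries, and the log2 fold change was -0.88 (SE 0.39, adjusted p = 0.706, edgeR). Cldn23, a little studied claudin, measured 3.71, 2.40 and 2.60 CPM in the knockout libraries, against 1.74, 5.04 and 2.99 CPM in the wild-type libraries. Its log2 fold change was -0.17 (SE 0.37, adjusted p = 0.991, edgeR) and was 0.30 without wild-type replicate 2. In these genes, and likewise in Cldn1, Cldn3, Cldn4 and Cldn6, the wild-type libraries with high Y-linked expression, replicates 2 and 3, exceeded wild-type replicate 1. With a term for Y-linked expression, which rests on wild-type replicate 1 as the only other wild-type library, the log2 fold changes were 0.21 for Cldn8 and 0.74 for Cldn23 (adjusted p = 0.815 and 0.421, edgeR). In the same fit that of Cldn6 was 1.88 (adjusted p = 0.024, edgeR), and that of Cldn7 was 1.05 (adjusted p = 0.124).

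Per length, Cldn4 was the most abundant of the 9 in all 6 libraries, and Cldn6 came next in all 3 knockout libraries. Cldn4 averaged 40.0 ± 9.71 TPM in the knockout and 23.7 ± 9.25 TPM in wild-type (SD, n = 3 each), and in TPM its groups overlapped, since knockout replicate 2 was at 33.0 and wild-type replicate 2 at 33.6 TPM. In the knockout the order continued with Cldn6 at 24.2 ± 3.27, Cldn1 at 15.9 ± 4.83, Cldn3 at 10.97 ± 2.23, Cldn7 at 10.7 (SD 1.1) and Cldn12 at 8.94 ± 0.361 TPM (SD, n = 3). The lowest knockout levels were those of Cldn9, Cldn23 and Cldn8, at 2.54 ± 0.49, 2.04 ± 0.553 and 0.935 ± 0.157 TPM. Among neighbours in this order, Cldn1 and Cldn3, Cldn3 and Cldn7, and Cldn9 and Cldn23 overlapped over the 3 knockout libraries. In wild-type the order after Cldn4 was Cldn1 at 11.9 ± 3.46, Cldn12 at 9.70 ± 1.49, Cldn6 at 8.51 ± 3.1, Cldn7 at 5.26 ± 1.06, Cldn3 at 4.37 ± 2.77, Cldn23 at 2.49 ± 1.48, Cldn9 at 2.14 ± 0.337 and Cldn8 at 1.88 ± 1.2 TPM (SD, n = 3). There every neighbouring pair overlapped except Cldn4 and Cldn1.

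The summed level of the 9 genes was 140, 102 and 107 TPM in the knockout libraries, against 49.0, 92.9 and 67.9 TPM in the wild-type libraries. The knockout libraries were all higher, and wild-type replicate 2 came close to the lowest of them. Within that sum, Cldn6 made up 19.5%, 24.2% and 19.3% in the knockout libraries, against 11.9%, 12.8% and 11.5% in the wild-type libraries. The Cldn6 share varied little within wild-type, replicate 2 included (SD 0.678), and more within the knockout (SD 2.77, n = 3 each). Cldn7 made up 8.58%, 9.94% and 9.34% in the knockout libraries, against 12.2%, 6.18% and 5.97% in the wild-type libraries. Its share in wild-type replicate 1 was thus above that in every knockout library. Cldn4 made up 34.2% ± 2.14 of the sum in the knockout and 33.4% ± 2.56 in wild-type (SD, n = 3 each). Cldn12 made up 6.66% to 8.78% in the knockout libraries and 10.6% to 16.6% in the wild-type libraries. Shares add up to a whole, so a member that did not change in level takes a smaller share when others rise.

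**Figure D3:**
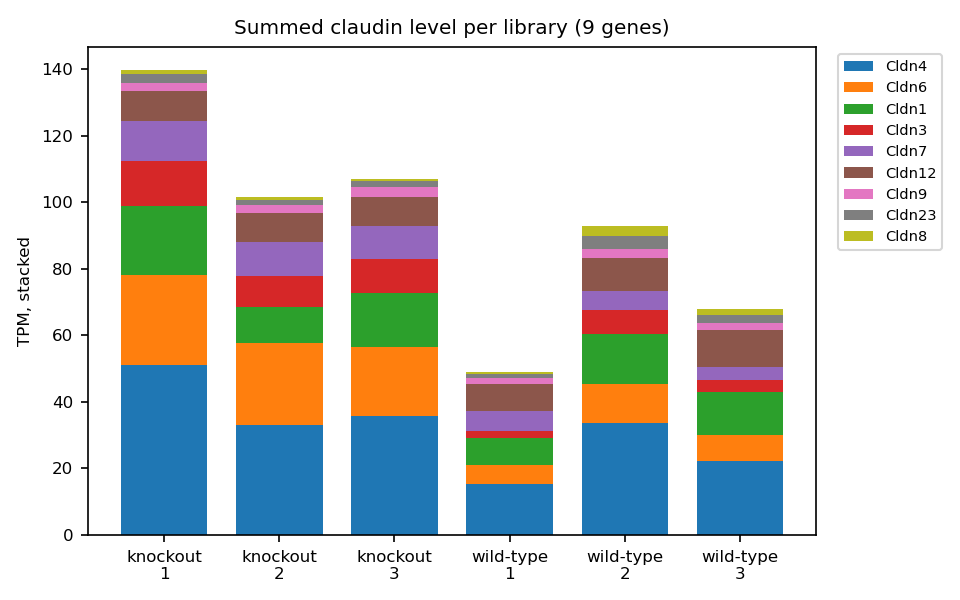
Summed level of the 9 claudins in each library, in TPM, with each gene as a coloured part of the bar. The 3 knockout libraries reached 102 to 140 TPM and the 3 wild-type libraries 49.0 to 92.9 TPM.

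Claudins are expressed in epithelium, so the levels of epithelial marker genes in the same libraries are set beside them. Of 25 pan-epithelial genes, such as Cdh1 and Epcam, 0 were called in either direction by edgeR, where 0.431% of all genes were. The unadjusted p was under 0.05 for 10, all higher in the knockout, where 3.81% of all genes were so. Fold changes were positive for 19, where 48.8% of all genes had a positive one. The median log2 fold change of the 25 genes was 0.38. Their mean log2(CPM + 0.5) was 6.25, 5.91 and 6.17 in the knockout libraries, against 5.39, 6.13 and 5.55 in the wild-type libraries, so wild-type replicate 2 lay inside the knockout range, and none of these genes was at 0. Of 8 basal and 7 spinous epidermis genes, 0 were called by edgeR. The unadjusted p was under 0.05 for 3 basal genes and 1 spinous gene, all higher in the knockout, where 3.81% of all genes were so. The basal list shares genes with the pan-epithelial list, Krt5 and Krt14 among them. The summed pan-epithelial level was 5160, 3771 and 4938 CPM in the knockout libraries, against 2227, 3845 and 2403 CPM in the wild-type libraries. The basal keratins Krt5 and Krt14 held much of that sum. Of 9 periderm genes, 5 were called higher (Krt6a, Krt17, Krt8, Krt18 and Krt13), where 0.348% of all genes were, and 0 lower. With no adjustment, p was under 0.05 for 6 that were higher and 1 that was lower, where 3.81% and 3.41% of all genes were so. The lower one, the keratin gene Krt4, averaged 16.6 ± 5.06 CPM in the knockout and 55.8 ± 24.3 CPM in wild-type (SD, n = 3 each, adjusted p = 0.0785, edgeR), and its groups did not overlap. The summed periderm level was 542 to 1098 CPM in the knockout, against 151 to 272 CPM in wild-type, and in the knockout most of it came from Krt6a and Krt17, which averaged 267 and 352 CPM there, against 17.8 and 35.4 CPM in wild-type. Knockout replicate 2 had the lowest epithelial level of the knockout and wild-type replicate 2 the highest of wild-type. Between this pair of libraries, Cldn6 was at 26.6 CPM in the knockout library and 11.3 CPM in the wild-type library, and Cldn7 at 6.91 CPM in the knockout library and 2.93 CPM in the wild-type library. Cldn4 was closer, at 45.9 CPM in the knockout library and 41.0 CPM in the wild-type library. Cldn3 was at 7.84 CPM in the knockout library and 5.44 CPM in the wild-type library, and Cldn1 at 30.5 and 36.6 CPM. This pair is 1 library per genotype, picked after the levels were seen. The part of epithelial content in the claudin levels was not tested.

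**Figure D4:**
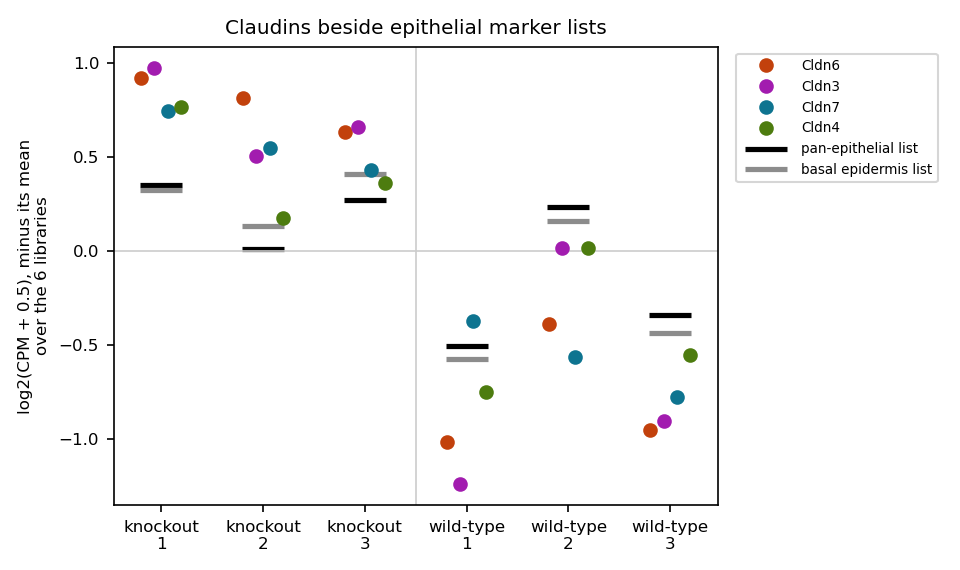
Level of Cldn6, Cldn3, Cldn7 and Cldn4 in each library, as log2(CPM + 0.5) minus its mean over the 6 libraries, beside the same for the mean of the pan-epithelial and basal epidermis lists (horizontal marks). The 3 knockout libraries are on the left. In wild-type replicate 2 the epithelial marks lie in the knockout range, and the claudins drawn lie below all knockout libraries, Cldn4 only narrowly. The part of epithelial content in this was not tested.

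With library sizes scaled on the geometric mean of the pan-epithelial genes, so that claudins were compared per epithelial marker RNA, Cldn6 stayed called. Its log2 fold change was then 1.23 (SE 0.32, adjusted p = 0.0137, edgeR), against a median of all genes of -0.448. The SE was larger than the 0.19 with TMM, and the unadjusted p rose from 2.09e-05 with TMM to 0.000147 (edgeR). Over all genes, 242 of 16938 were called with this scaling, against 73 with TMM, so a call was easier to reach here. On that scale Cldn3 was at 1.13 (adjusted p = 0.0979), Cldn7 at 0.82 (adjusted p = 0.326), Cldn4 at 0.46 (0.326), Cldn1 at 0.08 (0.836) and Cldn8 at -1.18 (0.162). With scaling on the summed pan-epithelial counts, which the abundant keratins weigh on most, the median gene moved to -0.772, and Cldn6 was at 0.91 (adjusted p = 0.0592), Cldn3 at 0.81 (0.0684) and Cldn7 at 0.50 (0.238). Cldn8 was then called lower, at -1.498 (adjusted p = 0.0278, edgeR). With that scaling 718 of 16938 genes were called in either direction, and 10933 had an unadjusted p under 0.05 (edgeR). Such scaling moves all genes by nearly the same amount, so taking the median gene off nearly undoes it by construction. The values relative to the median gene, 1.68 for Cldn6 and 1.27 for Cldn7 on both pan-epithelial scales, are no comparison per epithelial marker RNA.

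**Figure D5:**
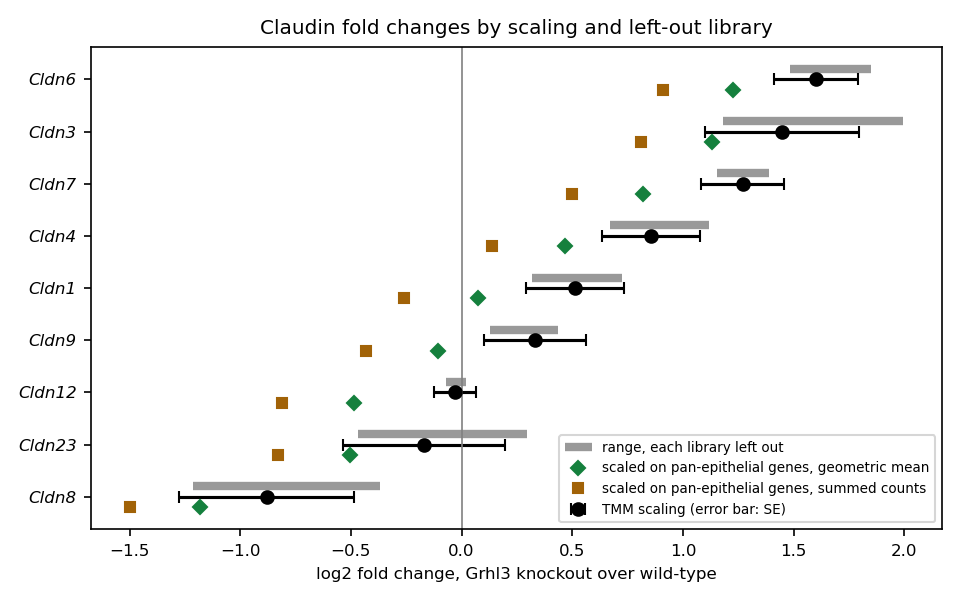
Log2 fold change of each claudin, Grhl3 knockout over wild-type, with library sizes scaled by TMM (circles, with the standard error of the edgeR fit) or on pan-epithelial genes (diamonds and squares); grey bars span the 6 fits with 1 library left out. Cldn6, Cldn3, Cldn7 and Cldn4 lie above 0 in every fit drawn, while Cldn1 and Cldn9 lie below 0 with scaling on summed pan-epithelial counts.

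Markers of other tissues gave no calls by edgeR, in 8 endothelial, 6 cartilage, 6 skeletal muscle, 5 Schwann cell, 4 erythroid and 5 liver and visceral endoderm genes. Of all genes, 0.431% were called, 3.81% were higher with an unadjusted p under 0.05, and 3.41% were lower with such a p. That p was under 0.05 for 2 endothelial and 1 erythroid gene, which were higher, and for 2 cartilage genes, which were lower. It was under 0.05 for 0 muscle or Schwann cell genes. The summed levels were 438 to 476 CPM in the knockout, against 388 to 408 CPM in wild-type, for endothelium, and 2035 to 3094 CPM in the knockout, against 3278 to 4726 CPM in wild-type, for cartilage. All 5 liver and visceral endoderm genes had an unadjusted p under 0.05 and were higher, with summed levels of 33.0, 77.1 and 5.51 CPM in the knockout libraries, against 3.78, 3.69 and 3.01 CPM in the wild-type libraries. In knockout replicate 3, where that sum was close to the wild-type level, Cldn6 was at 23.5 CPM and Cldn7 at 6.31 CPM. The part of these tissues in the claudin levels was not tested.

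Other claudins stayed outside the calls. Of 26 further claudin genes in the tables, 8 passed the filter on low counts and 0 were called by edgeR in either direction. The unadjusted p was under 0.05 for 1 of them, Cldn13, which was higher, where 3.81% of all genes were so. Of the 26 genes, 12 had no count in any library. Cldn5, the claudin of endothelium, averaged 22.6 ± 3.45 CPM in the knockout and 18.1 ± 3.78 CPM in wild-type (SD, n = 3 each, log2 fold change 0.32, adjusted p = 0.81, edgeR). Cldn11, known from myelin and the testis, measured 5.87, 4.07 and 5.24 CPM in the knockout libraries, against 6.58, 5.92 and 7.82 CPM in the wild-type libraries. It was lower in every knockout library, with an adjusted p of 0.711 (log2 fold change -0.42, SE 0.19, edgeR), and 6.16% of all genes lay that way. Cldn13 was near the detection limit, at 11, 54 and 15 counts in the knockout libraries, against 1, 4 and 3 counts in the wild-type libraries. With an adjusted p of 0.293 it did not pass (log2 fold change 3.06, SE 0.82, edgeR), and its highest library, knockout replicate 2, was also the highest in liver and visceral endoderm genes. Cldn34c1, from an X-linked group of similar copies whose reads may be divided between them, measured 16.1 to 17.9 CPM in the knockout and 16.0 to 21.4 CPM in wild-type. Cldn10, Cldn15, Cldn19 and Cldn2 stayed at or below 1.05 CPM in every library, with adjusted p-values of at least 0.929 (edgeR).

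The partners of claudins at the junction had mostly positive fold changes, and none passed edgeR's quasi-likelihood test. Of 26 listed scaffold, tricellular, polarity and adhesion partners, all were tested and 0 were called in either direction by that test. Fold changes were positive for 22, where 48.8% of all genes had a positive one. The likelihood ratio test called 3 higher (Crb3, Epcam and Marveld2), where 1.09% of all genes were. DESeq2 called 4 higher, these and F11r, where 1.25% of all genes were. The unadjusted p was under 0.05 for 8 of 26, all higher in the knockout, where 3.81% of all genes were so. The groups did not overlap for 7, again with the knockout higher, where 6.77% of all genes lay that way. Over all 26 the median log2 fold change was 0.12. Crb3, a polarity protein of the apical membrane, measured 6.84, 4.74 and 5.17 CPM in the knockout libraries, against 2.64, 2.67 and 3.01 CPM in the wild-type libraries (fold 2.01, adjusted p = 0.105, edgeR). Epcam, the binding partner of Cldn7, measured 77.5, 69.4 and 65.6 CPM in the knockout libraries, against 34.7, 52.2 and 39.7 CPM in the wild-type libraries (log2 fold change 0.75, SE 0.15, adjusted p = 0.126, edgeR). When wild-type replicate 2 was left out, Epcam passed the test (adjusted p = 0.0421, edgeR), but with any other library left out it did not. Epcam also passed with the term for Y-linked expression (adjusted p = 0.0451, edgeR).

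Of the tricellular proteins, which seal the points where cells of an epithelium meet at their corners, Marveld2 (tricellulin) averaged 10.4 ± 0.314 CPM in the knockout and 5.69 ± 1.55 CPM in wild-type (SD, n = 3 each), at an adjusted p of 0.181 (edgeR). Ildr1 averaged 2.67 ± 0.657 CPM in the knockout and 1.18 ± 0.485 CPM in wild-type, at an adjusted p of 0.341 (edgeR). The adhesion molecule F11r averaged 49.5 ± 0.513 CPM in the knockout and 35.8 ± 5.52 CPM in wild-type (SD, n = 3 each, adjusted p = 0.261, edgeR). Occludin (Ocln) averaged 14.7 ± 2.68 CPM in the knockout and 8.40 ± 2.7 CPM in wild-type (adjusted p = 0.389, edgeR). For each of these 4 the knockout libraries were all above the wild-type libraries in CPM. In TPM the groups of F11r overlapped, with knockout replicate 1 at 32.1 and wild-type replicate 2 at 33.9 TPM.

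For the 3 claudins with the smallest p, the genes nearest in pattern were sought by the root mean square difference of log2 CPM over the 6 libraries, each gene centred on its own mean, among 12849 genes whose log2 CPM averaged 1 or more. Nearest to Cldn6 were Ptk2b (difference 0.195), a kinase related to focal adhesion kinase, Edn1 (0.2), which encodes endothelin 1, the keratin gene Krt7 (0.251) and Spib (0.253), an ETS-family transcription factor. Ptk2b measured 9.32, 7.35 and 8.21 CPM in the knockout libraries, against 1.90, 3.27 and 2.94 CPM in the wild-type libraries. Nearest to Cldn7 were Spib (0.153), the small heat shock protein gene Hspb8 (0.157), the melanosome gene Pmel (0.181) and Sh3rf2 (0.208). Nearest to Cldn3 were the desmosomal cadherin gene Dsc2 (0.223), Cldn6 itself (0.258), Ptk2b (0.272) and St14 (0.302), which encodes the membrane protease matriptase. The median gene lay at 0.856 from Cldn6, 0.663 from Cldn7 and 0.917 from Cldn3. Among the other 8 members, the nearest to Cldn6 was Cldn3 and the farthest was Cldn8, at 1.21.

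The sequence before the start of the members that were higher in each knockout library is shown because Grhl3 is a DNA-binding factor. The sequences are from RefSeq (GRCm38.p6), 5′ to 3′ on the strand of the gene, up to 250 bases before the start and ending before any annotated exon. Capitals would mark the grainyhead motif, and no window held it. For Cldn7 the sequence shown lies before the start of the 913-base transcript. A further Cldn7 promoter lies near the start of the 1335-base transcript. Its window, 69965171 to 69965420, begins inside an annotated exon, so none of it is shown.

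Cldn6, chr17:23679115-23679248, plus strand: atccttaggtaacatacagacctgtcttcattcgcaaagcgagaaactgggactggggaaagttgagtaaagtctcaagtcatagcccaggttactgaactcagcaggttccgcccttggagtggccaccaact
Cldn7, chr11:69964529-69964778, plus strand: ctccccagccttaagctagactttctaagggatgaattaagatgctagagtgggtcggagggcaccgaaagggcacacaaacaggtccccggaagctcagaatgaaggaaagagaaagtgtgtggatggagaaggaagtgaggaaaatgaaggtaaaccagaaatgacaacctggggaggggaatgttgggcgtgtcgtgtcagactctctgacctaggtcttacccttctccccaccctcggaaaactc
Cldn3, chr5:134985964-134986213, plus strand: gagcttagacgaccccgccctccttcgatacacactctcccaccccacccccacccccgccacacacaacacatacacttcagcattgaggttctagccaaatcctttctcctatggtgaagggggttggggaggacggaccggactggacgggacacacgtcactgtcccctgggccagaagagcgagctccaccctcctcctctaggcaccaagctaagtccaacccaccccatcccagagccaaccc
Cldn4, chr5:134946935-134947184, minus strand: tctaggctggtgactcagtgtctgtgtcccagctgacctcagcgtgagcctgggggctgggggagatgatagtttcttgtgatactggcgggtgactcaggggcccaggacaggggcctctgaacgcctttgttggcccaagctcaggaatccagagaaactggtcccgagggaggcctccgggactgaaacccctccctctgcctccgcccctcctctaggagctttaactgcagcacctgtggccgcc

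The motif was searched on both strands as AACCGGTT and as AACNGGTT, which includes the first, over 300 bases of each promoter, 250 before and 50 after the start. Of 32851 RefSeq promoters, 0.146% held AACCGGTT and 2.09% held AACNGGTT. The table matched 6 of the 9 members with 9 promoters, and 0 of these 9 held either form. Cldn8, Cldn9 and Cldn23 had no match. The absence of a match says only that these letters are not in these windows.

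The authors' deposited table of the comparison lists 6 of the 9 claudins. In the authors' deposited table the log2 fold changes were 1.60 for Cldn6, 1.45 for Cldn3, 1.27 for Cldn7 and 0.85 for Cldn4, with false discovery rates of 2.37e-10, 0.0125, 1.99e-05 and 0.0257 from edgeR. In the authors' deposited table Cldn1 and Cldn8 had log2 fold changes of 0.51 and -0.88 and false discovery rates of 0.66 and 0.74. It reports a likelihood ratio statistic, and the likelihood ratio test run here called the same 4 claudins.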

How the data were processed

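Polyadenylated RNA of 6 handpad samples, 3 Grhl3 knockout and 3 wild-type, was sequenced with a stranded Illumina kit, per the labels' protocols. Per the submitters' processing notes, FastQC and kallisto were used with mm10. The sources used here give neither the kallisto version nor its transcript set. Across both groups, per the file headers, the deposited tables give estimated counts and TPM for 111462 transcripts, of which 110203 matched GENCODE annotation by unversioned identifier. The deposited comparison table gives log2 fold changes, log2 CPM, a likelihood ratio score and p-values by the authors.

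Estimated counts were summed per gene and rounded. Genes passing filterByExpr (minimum count 10, minimum total 15) were tested with edgeR 4.0.16 in R 4.3.3, with TMM scaling and genotype as the only term, over all 6 libraries. The script was tested on simulated counts. TPM was used for levels without a test. Alternatives used limma 3.58.1, DESeq2 1.42.0, other scalings, filters and terms, and each library left out. The labels name no molecular identifiers, so counts may include PCR copies.

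The 9 claudins and all lists were chosen with earlier results of these data known. Named genes are the 9 members, Grhl3, other claudins that passed the filter, the partners with the 6 smallest p-values, and the 4 genes nearest in pattern to the 3 members with the smallest p. Wbscr25, which overlaps a member, and the marker genes Cdh1, Krt4, Krt5, Krt6a, Krt8, Krt13, Krt14, Krt17 and Krt18 lie outside this rule and were named after their values were seen. The term for Y-linked expression with a dividing line of 50 CPM, in place of a planned 1 CPM that all libraries exceeded, and the geometric-mean scaling were added after seeing the data.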

Additional observations from a re-analysis of the deposited data

How the results depend on the processing

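The number of claudins called higher was 2 with TMM and with 6 alternatives (RLE factors, unscaled totals, no filter, a minimum count of 50, limma-voom and a looser threshold of 0.1). It was 4 with the likelihood ratio test or DESeq2, and 1 with the replicate block, the Y-linked term, the effective length offset or geometric-mean pan-epithelial scaling. It was 0 with summed pan-epithelial scaling, and 0 to 2 with 1 library left out. Claudins called lower numbered 1 with summed pan-epithelial scaling and 0 in all other fits.

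Over all genes 73 were called, against 718 with summed and 242 with geometric-mean pan-epithelial scaling, 118 with no filter, 260 with the likelihood ratio test, 299 with DESeq2 and 113 at the looser threshold. The count was 45 with limma-voom, 47 with the replicate block, 44 with the length offset and 10 to 206 with 1 library left out. Partners called higher numbered 3 with the likelihood ratio test, 4 with DESeq2, 1 with the Y-linked term and 0 to 1 with 1 library left out.

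Pan-epithelial scaling moved the median gene to -0.772 (summed) and -0.448 (geometric mean). The sign turned for Cldn1 (-0.26) and Cldn9 (-0.43) with summed and for Cldn9 (-0.10) with geometric-mean scaling. Taking the median gene off nearly undoes the scaling, so it returned values near those with TMM by construction. These were 0.51 and 0.52 for Cldn1 and 0.34 for Cldn9 on both scales, and they are no comparison per epithelial marker RNA. The sign also turned for Cldn8 (0.21) and Cldn23 (0.74) with the Y-linked term, Cldn23 (0.30) without wild-type replicate 2 and Cldn12 (0.018) without wild-type replicate 3. None of the values with a turned sign passed the test, and the cause of the turns was not tested. With 1 library left out, the log2 fold change ran from -0.47 to 0.30 for Cldn23 and from -0.072 to 0.018 for Cldn12. With the replicate block Cldn6 stayed called (adjusted p = 0.0257, edgeR) and Cldn7 did not (0.0808). Deviations of same-numbered libraries correlated across genes at -0.244, -0.0916 and -0.163, so the numbers were not taken to pair the samples. At 59 to 263 counts per library, Cldn8 and Cldn23 were among the shallowest members.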
